A study of Rattus norvegicus with 18 samples.

Results

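The comparison of passage 100 (P100) with passage 30 (P30) in mesenchymal stromal cells (MSCs) from old rats rested on 6 of the 18 arrays of the series, 3 per passage, and was described over 8520 genes. These were the genes detected in either group, where detected means a mean detection p of at most 0.01 over the 3 arrays, the detection p being the chance of such a brightness on a negative-control bead. Of them, 6156 carried a gene name and 2364 were known only by their probe. The cells, called aMSCs, came from bone marrow of male Sprague-Dawley rats aged 12 months, had been selected by their adherence to plastic, and had been passaged serially in one expansion medium. The same series held cells of 3-week-old rats (yMSCs) and early cultures at passage 2, and it was made to set ageing in the animal beside ageing in culture. No label stated that the 3 arrays of a group came from separate animals or separate cultures, and the study spoke of a pair of long-term cultivated lines, aMSCs and yMSCs. The p-values therefore measured only the spread between these arrays, and passage number cannot be told apart from the history of the particular culture.

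MSCs are fibroblast-like cells of the marrow stroma that attach to plastic, carry the surface proteins CD44, CD73, CD90 and CD29, lack the leukocyte protein CD45, and can be induced to form bone, cartilage and fat cells. They also secrete and remodel extracellular matrix, hold actin stress fibres, and release cytokines and growth factors. Cells kept in culture over very many passages are known to drift in shape, in differentiation capacity and sometimes in chromosome content, and rodent cells can escape senescence and continue to divide.

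The arrays were Illumina RatRef-12 bead chips, and each value is the log2 of a background-corrected, quantile-normalized signal, on which 1 unit is a 2-fold difference. The background level of both groups was alike, with a median signal of the undetected probes of 53.3 to 54.7 on the P30 arrays and 51.6 to 52.5 on the P100 arrays. Their number, 3 per group, limited the precision. The arrays did not stand equally close to each other within a group. P30 replicates 1 and 2 correlated at 0.994 across the 9531 genes tested, whereas replicate 3 correlated at 0.961 and 0.969 with them and at 0.949, 0.968 and 0.969 with the 3 yMSCs P30 arrays. Replicate 3 was more than 1 log2 unit above the mean of replicates 1 and 2 in 465 genes and below it in 164. At P100, replicate 2 correlated at 0.980 and 0.968 with the others, which correlated at 0.991, and it lay more than 1 unit below their mean in 240 genes and above it in 45. Its deviation correlated at 0.822 across genes with that of replicate 1 of yMSCs P30. Named genes that lost their call without these arrays are given with and without them, and their part in the other results was not tested.

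The labelled cell type was checked against its markers. Of the 6 MSC surface genes on the array, Itgb1, Cd44, Nt5e, Thy1 and Alcam were detected on all 6 arrays, and Vcam1 on the P100 arrays alone. Thy1, which encodes CD90, measured 8.76, 8.89 and 11.39 at P30 and 11.76, 11.82 and 11.76 at P100. Replicate 3 at P30 lay just below the P100 values and the other P30 replicates far below, and the log2 change of 2.1 ± 0.45 (SE, adjusted p = 0.00186) was 0.39 (adjusted p = 0.291) without P30 replicates 1 and 2. Vcam1, a cell adhesion molecule bound by leukocytes, measured 4.83, 4.6 and 4.67 at P30 and 7.4, 7.61 and 7.67 at P100, which was at least 4.4-fold higher at P100. Nt5e, which encodes CD73, measured 7.25, 7.08 and 6.32 at P30 and 6.17, 6.15 and 5.99 at P100, and its log2 change of -0.78 ± 0.29 (SE, adjusted p = 0.0464) lost the call whenever P30 replicate 1 or 2 or any P100 array was left out, the change being -1.07 to -0.60 and the adjusted p up to 0.182 with 1 array left out. Itgb1, Cd44 and Alcam changed by 0.13, 0.20 and -0.40 (adjusted p = 0.792, 0.496 and 0.0689), with overlapping groups, and none was called.

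Most genes that mark other cell types were not detected. Ptprc (CD45), Cd34, Cd68, Cd163, Aif1, Tyrobp, Cdh5, Vwf, Cdh1 and Epcam were detected on none of the 6 arrays. Of the 26 macrophage and monocyte genes on the array, 23 were detected on no array. The exceptions were Laptm5, Gpnmb and Cd14, and the summed signal of the list ran from 751 to 797 at P30 and from 1021 to 1101 at P100. Cd14, the co-receptor for bacterial lipopolysaccharide, measured 7.3, 7.04 and 7.71 at P30 and 8.89, 8.55 and 8.7 at P100, a log2 change of 1.36 ± 0.21 (SE, adjusted p = 8.38e-05). Its groups did not overlap. The list of surface genes expected absent from MSCs had 4 genes on the array, of which 3 were detected on no array. Cd14 was the only detected member of that list, on all 6 arrays. Of the 11 epithelial genes, 9 were detected on no array. Krt7, a keratin of simple epithelia, lay between 8.81 and 9.49 on all 6 arrays, and the summed signal of 744 to 1002 at P30 and of 2096 to 2638 at P100 held the rise of Krt8 given below. Ramp2, a receptor subunit from the endothelial list, lay between 8.74 and 9.22 at P30 and between 7.75 and 8.99 at P100. Tie1 of the endothelial list, Cd3e of the lymphocyte list, and Slc4a1 and Ahsp of the erythroid list were detected by group at signals of at most 6.20. The log2 changes of Ramp2, Tie1, Cd3e and Slc4a1 were -0.58, -0.40, -0.33 and -0.18, and none of the 5 genes was called. Of the macrophage list only Cd14 and Gpnmb were called, and the part of such cells in the results was not tested.

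More genes were detected at P100 than at P30 in aMSCs. It was 7905, 7607 and 7609 on the P30 arrays and 8471, 9104 and 8180 on the P100 arrays, a difference in means of 878 with no overlap. The exact permutation test gave p = 0.1, two-sided, which is the smallest value that 3 against 3 arrays allow. In probes, the other groups ran from 8700 to 9105 in aMSCs at passage 2, from 7901 to 8288 in yMSCs P30 and from 7593 to 7985 in yMSCs P100, so that the count of yMSCs did not rise over the same step. By group, 7173 genes were detected at both passages, 304 at P30 only and 1043 at P100 only.

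A gene was called when its adjusted p (limma, Benjamini-Hochberg) was under 0.05 and its fold change at least 1.5. By this rule 1340 genes, 15.7% of the 8520, were higher at P100 and 1138, 13.4%, were lower, together 29.1%. The counts of each gene list below are to be read beside these shares. The groups did not overlap in 1144 of the genes called higher and in 1030 of those called lower, and over all 8520 genes in 3638, 42.7%. The median fold was 2.02 among the genes called higher and 1.90 among those called lower. Differences of at least 8-fold were found in 52 genes that rose and 32 that fell. Of the genes called higher, 552 were detected at P100 only, and of those called lower 213 at P30 only, so these had to differ to be counted. The median log2 change of all 8520 genes was -0.05, and 0.08 without normalization between arrays, where the split was 1696 higher and 800 lower. Leaving out 1 array of these groups gave 2014 to 2800 calls in place of 2478. Without P30 replicates 1 and 2 together, which left replicate 3 as the only P30 array, 1463 genes were called, 814 higher and 649 lower.

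**Figure D1:**
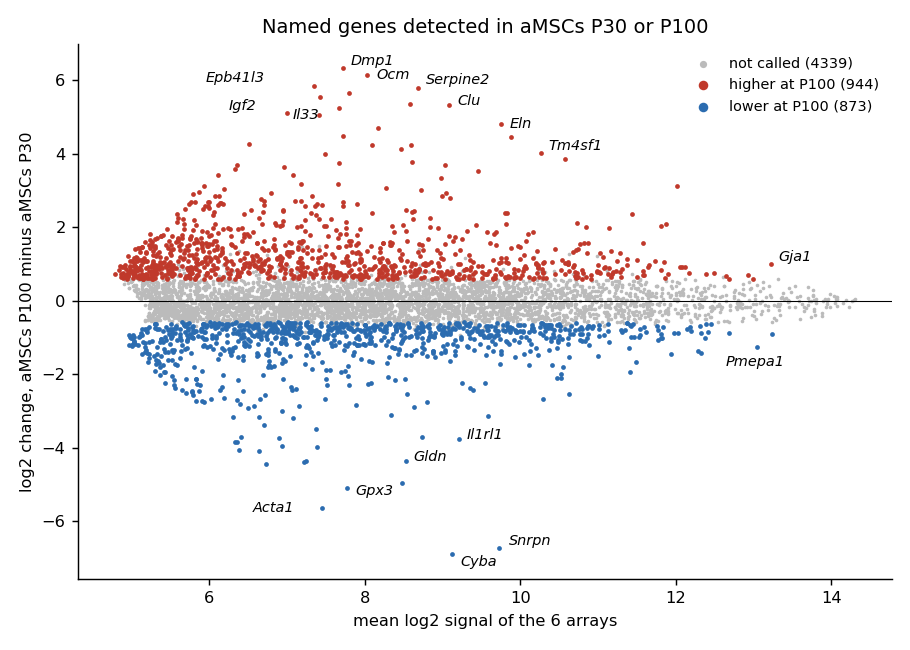
Log2 change from aMSCs P30 to aMSCs P100 (vertical axis) against the mean log2 signal of the 6 arrays (horizontal axis), with 1 point for each of the 6156 named genes. Red points were called higher, blue points lower, and grey points were not called. Dmp1, at the background at P30, and Cyba (-6.9) lie at the extremes.

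The largest rises began from signals at or near the background. Dmp1, an acidic matrix protein of bone and dentin made by osteocytes, measured 4.45, 4.71 and 4.52 at P30 and 10.69, 11.18 and 10.79 at P100 (adjusted p = 5.27e-11). Ocm, which encodes oncomodulin, a parvalbumin relative that binds calcium, measured 5.13, 4.84 and 4.92 at P30 and 11.23, 10.38 and 11.69 at P100. Epb41l3, a protein 4.1 family member that links membrane proteins to the cytoskeleton, measured 4.4, 4.46 and 4.42 at P30 and 10.06, 10.64 and 10.15 at P100. None of the 3 was detected on any P30 array, and they were at least 44.2-fold, at least 51.3-fold and at least 29.1-fold higher at P100. Mgst1, a membrane-bound glutathione transferase, measured 5.06, 5.15 and 4.69 at P30 and 10.74, 10.09 and 11.06 at P100 and was at least 37-fold higher. Cd83, a surface protein best known from mature dendritic cells, measured 4.71, 4.54 and 4.72 at P30 and 10.13, 10.46 and 10.02 at P100 and was at least 27.6-fold higher. Nfib, a transcription factor of the nuclear factor I family, measured 4.44, 4.4 and 4.32 at P30 and 8.41, 9.09 and 8.43 at P100 and was at least 9.36-fold higher. These genes had separate groups, with the lowest P100 array of each over 3 log2 units above the highest P30 array.

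Other large rises concerned secreted proteins. Serpine2, an inhibitor of thrombin and plasminogen activators, measured 6.05, 5.58 and 5.76 at P30 and 11.66, 11.7 and 11.4 at P100, a log2 change of 5.79 ± 0.23 (SE, adjusted p = 6.46e-12). Clu, a secreted chaperone that also inhibits complement, measured 6.57, 6.73 and 5.99 at P30 and 11.83, 11.71 and 11.7 at P100, a change of 5.32 ± 0.21 (SE, adjusted p = 8.5e-12). Igf2, a fetal growth factor, measured 4.48, 4.42 and 4.44 at P30 and 9.39, 9.54 and 9.71 at P100 and was at least 17.5-fold higher at P100. In each of the 3 genes the P100 arrays lay above all P30 arrays. Tmem158, a membrane protein first found as induced by Ras, changed by 5.06 ± 0.33 (SE, adjusted p = 3.88e-09), with 4.36, 4.52 and 5.78 at P30 and 10.1, 10.03 and 9.7 at P100. Its P30 replicate 3 was above replicates 1 and 2 but far under every P100 array. Gpr15lg, the ligand of the receptor GPR15, rose by 4.46, Crabp1, a retinoic acid-binding protein, by 4.48, and Tm4sf1, a membrane protein of the tetraspanin-like L6 family, by 4.01 on the log2 scale.

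Several intracellular proteins rose as strongly. Dync1i1, an intermediate chain of the motor dynein, measured 5.9, 5.83 and 5.98 at P30 and 11.11, 11.46 and 11.19 at P100, a change of 5.35 ± 0.16 (SE, adjusted p = 3.13e-13). Rgs2, which shortens signalling through G proteins, measured 6.13, 6.22 and 7.07 at P30 and 10.84, 10.56 and 10.77 at P100, a change of 4.25 ± 0.27 (SE, adjusted p = 2.44e-09). Krt8, an intermediate filament protein of simple epithelia, measured 6.55, 6.45 and 6.21 at P30 and 10.77, 10.39 and 10.47 at P100, a change of 4.14 ± 0.19 (SE, adjusted p = 3.93e-11). The groups of these 3 genes did not overlap, while Krt18 and Krt19, keratins that pair with Krt8 or accompany it in epithelia, were detected on none of the 6 arrays. Rps9, a protein of the small ribosomal subunit, measured 5.92, 5.81 and 5.71 at P30 and 10.63, 9.56 and 11.36 at P100. Its change of 4.7 ± 1.19 (SE, adjusted p = 0.00607) became 4.81 (adjusted p = 0.08) without P30 replicates 1 and 2. Its mean at passage 2, in arrays that share the estimate of the spread, was 7.81 ± 2.62 (SD, n = 3).

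The largest fall was that of Cyba, the p22phox subunit shared by several NADPH oxidases, which measured 12.63, 12.68 and 12.42 at P30 and 5.8, 5.08 and 6.14 at P100, a log2 change of -6.9 ± 0.22 (SE, adjusted p = 6.83e-13). Snrpn, an imprinted gene for a spliceosome protein, measured 13.06, 13.16 and 13.07 at P30 and 6.61, 5.8 and 6.69 at P100, a change of -6.74 ± 0.19 (SE, adjusted p = 3.13e-13). Acta1, skeletal muscle alpha-actin, measured 10.77, 10.7 and 9.35 at P30 and 4.84, 4.43 and 4.65 at P100 and was at least 36-fold lower at P100. Each of the 3 fell from a high signal, and the groups were at least 4 log2 units apart. Gpx3, a secreted glutathione peroxidase, measured 10.56, 10.67 and 9.73 at P30 and 5.2, 5.15 and 5.36 at P100, a change of -5.08 ± 0.27 (SE, adjusted p = 2.47e-10). Ppp1r14a, an inhibitor of myosin phosphatase, measured 11.14, 11.18 and 10.55 at P30 and 5.89, 5.49 and 6.66 at P100, a change of -4.95 ± 0.28 (SE, adjusted p = 6.71e-10). Aplp1, a relative of the amyloid precursor protein, measured 9.8, 9.59 and 7.45 at P30 and 4.43, 4.47 and 4.64 at P100 and was at least 14.3-fold lower. P30 replicate 3 read lowest of its group for Acta1, Gpx3, Ppp1r14a and Aplp1, but lay clear of all P100 arrays.

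Further falls ended at the background. Ly6e, a lipid-anchored surface protein, measured 8.74, 8.67 and 8.61 at P30 and 4.6, 4.64 and 4.55 at P100 and was at least 11.9-fold lower. Ckb, the brain-type creatine kinase, measured 8.43, 8.53 and 8.29 at P30 and 4.31, 4.4 and 4.39 at P100 and was at least 9.94-fold lower. Spink8, a serine protease inhibitor, measured 8.4, 8.22 and 8.19 at P30 and 4.43, 4.4 and 4.48 at P100 and was at least 9-fold lower. No P100 array detected any of them. Fuca2, a secreted fucosidase, was at least 8.86-fold lower and Col15a1, a collagen at the border of basement membranes, at least 8.89-fold lower. The log2 change was -4.39 for Gng11, a G protein gamma subunit, -4.36 for Gldn, which encodes gliomedin, and -4.35 for Qsox1, a secreted enzyme that forms disulfide bonds. It was -3.94 for Zdhhc2, a palmitoyltransferase, -3.73 for Adgrg1, an adhesion receptor, and -3.71 for Aebp1, a collagen-binding secreted protein.

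**Figure D2:**
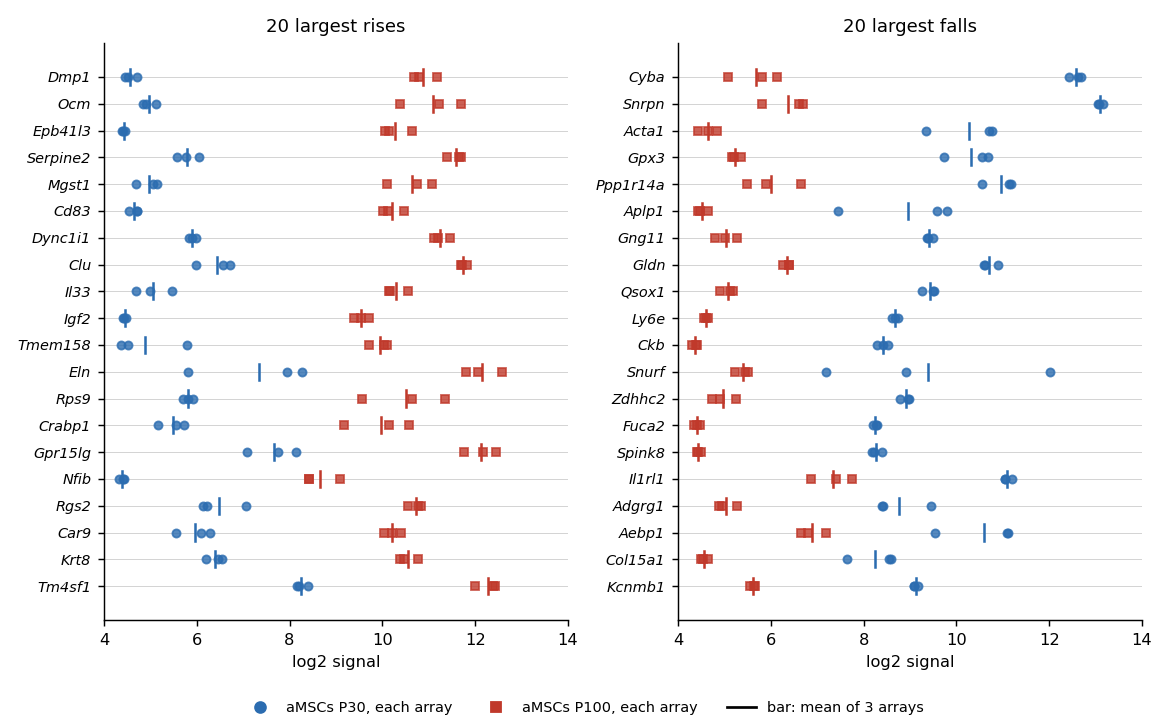
Log2 signal (horizontal axis) of the 20 named genes with the largest rises (left) and the 20 with the largest falls (right), each array a point (blue circles aMSCs P30, red squares aMSCs P100) and each bar the mean of 3 arrays. The groups are apart in all 40 genes because the genes were chosen for that, and the P30 points of Snurf and of Eln spread most.

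Among the genes of highest signal that were called, those that rose were Gja1, Npm1, Vim and Psmc1. Gja1, which encodes the gap junction protein connexin 43, measured 12.8, 12.62 and 12.75 at P30 and 13.73, 13.94 and 13.49 at P100, a change of 0.99 ± 0.17 (SE, adjusted p = 0.000249). Vim, the intermediate filament protein of mesenchymal cells, measured 12.78, 12.6 and 12.71 at P30 and 13.36, 13.29 and 13.19 at P100, a change of 0.59 ± 0.14 (SE, adjusted p = 0.00464), but lost the call without P30 replicate 2, P100 replicate 1 or P100 replicate 2, with the change 0.54 to 0.63 and the adjusted p up to 0.0245. Npm1, a nucleolar chaperone, measured 8.34, 9.97 and 13.08 at P30 and 13.71, 13.75 and 13.26 at P100. Replicate 3 at P30 lay close to the P100 values, and the change of 3.11 ± 0.70 (SE, adjusted p = 0.00265) was 0.50 (adjusted p = 0.118) without replicates 1 and 2. Psmc1, a subunit of the proteasome cap, rose by 0.71. Those that fell were Ftl1, the ferritin light chain, Pmepa1, an inhibitor of TGF-beta signalling, Bri3, a small membrane protein, and Snrpn. Ftl1 changed by -0.91 ± 0.20 (SE, adjusted p = 0.00235) and by -0.85 (adjusted p = 0.068) without P30 replicates 1 and 2, Pmepa1 by -1.27 ± 0.14 (SE, adjusted p = 2.96e-06), and Bri3 by -0.87 ± 0.26 (SE, adjusted p = 0.017). Bri3 lost the call without P30 replicate 1 or 2 or P100 replicate 2, with the change -1.11 to -0.53 and the adjusted p up to 0.0981.

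Genes of the extracellular matrix changed in both directions, and 1 family moved one way. Small leucine-rich proteoglycans are secreted proteins that bind collagen fibrils and growth factors. Of the 8 detected, 7 rose and 0 fell, the median log2 change being 1.88, against -0.05 for all genes. It was 1.16 with the 4 members that no P30 array or no P100 array detected set at the bound of their fold, or at 0 where no bound could be given. By group, 4 of the 8 were detected at P30 and all 8 at P100. Those detected at P100 alone entered the list through the higher group, so the count and the median are partly set by that. Aspn (asporin) measured 7.36, 7.3 and 6.89 at P30 and 10.84, 11.03 and 10.78 at P100, a change of 3.7 ± 0.27 (SE, adjusted p = 2.13e-08). Omd (osteomodulin) measured 4.56, 4.54 and 4.79 at P30 and 6.79, 6.63 and 6.77 at P100 and was at least 2.48-fold higher (adjusted p = 0.000148) there. Ogn (osteoglycin) measured 10.32, 9.9 and 10.26 at P30 and 12.05, 12.44 and 11.91 at P100, a change of 1.98 ± 0.23 (SE, adjusted p = 6.38e-06). These 3 genes lie next to each other on chromosome 17 in the RefSeq annotation, and all P100 arrays were above all P30 arrays. Lum (lumican) and Dcn (decorin) are neighbours on chromosome 7. Lum was at least 1.83-fold higher (adjusted p = 3.71e-06) at P100, and Dcn measured 4.48, 4.37 and 4.44 at P30 and 5.15, 5.25 and 5.62 at P100 (adjusted p = 0.027), with no bound above 1-fold. Fmod (fibromodulin) changed by 2.00 ± 0.40 (SE, adjusted p = 0.00108) and Bgn (biglycan) by 1.00 ± 0.15 (SE, adjusted p = 6.18e-05). Omd, Lum and Dcn were detected on no P30 array, and the call of Dcn was lost without P30 replicate 1, P30 replicate 2 or P100 replicate 3, with an adjusted p up to 0.0879. In the early aMSCs cultures at passage 2, whose arrays had a lower background (a median of 31.3 to 32.6 for undetected probes), the mean log2 signal was 10.89 ± 0.69 for Aspn, 12.32 ± 0.48 for Ogn and 6.67 ± 0.85 (SD, n = 3) for Omd.

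Elastic fibres consist of elastin on a scaffold of microfibrils. In this list 8 rose and 2 fell of 15 detected, with a median of 0.72, or 0.15 with 2 members not detected at one passage at their bounds. By group, 12 of the 15 were detected at P30 and all 15 at P100. Eln, elastin itself, measured 7.95, 8.27 and 5.82 at P30 and 12.07, 12.58 and 11.8 at P100, a change of 4.81 ± 0.74 (SE, adjusted p = 9.83e-05). Fbn2, which encodes the microfibril protein fibrillin-2, measured 4.94, 4.69 and 4.8 at P30 and 7.42, 7.64 and 7.19 at P100 and was at least 3.98-fold higher (adjusted p = 3.68e-08) there. Emilin1 and Fbln5, proteins that join elastin to cells and microfibrils, rose by 2.39 and 2.08. Eln at P30 was lowest on replicate 3, and no P30 array reached a P100 array. Loxl2, a crosslinking enzyme, changed by -1.2 ± 0.22 (SE, adjusted p = 0.000561), and Mfap5, a microfibril protein, changed by -2.01 ± 0.38 (SE, adjusted p = 0.000704), or -0.99 (adjusted p = 0.134) without P30 replicates 1 and 2. The median was 0.41 without P30 replicate 3.

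The other matrix lists were mixed. Of 10 fibrillar and fibril-associated collagens, 1 rose and 2 fell. Col3a1, the collagen of loose connective tissue, measured 10.35, 10.52 and 9.92 at P30 and 12.44, 12.99 and 12.44 at P100, a change of 2.36 ± 0.28 (SE, adjusted p = 5.84e-06). Col14a1, a collagen on the surface of fibrils, changed by -1.93 ± 0.38 (SE, adjusted p = 0.000904), and Col5a3 by -1.3 ± 0.31 (SE, adjusted p = 0.00459), or -0.72 (adjusted p = 0.269) without P30 replicates 1 and 2. Of 8 basement membrane genes, none rose and 2 fell, Col15a1 (above) and Col4a1, at -0.82 ± 0.24 (SE, adjusted p = 0.0155), which lost the call without P30 replicate 1 or P100 replicate 3, with the change -0.96 to -0.67 and the adjusted p up to 0.0635. Of 12 matricellular and adhesive proteins, 5 rose and 3 fell. Tnn (tenascin-N) measured 7.49, 7.41 and 8.16 at P30 and 11.12, 11.35 and 11.19 at P100, a change of 3.53 ± 0.18 (SE, adjusted p = 1.76e-10). Thbs2, an antiangiogenic thrombospondin, measured 5.34, 5.32 and 5.44 at P30 and 8.69, 9.27 and 8.44 at P100, a change of 3.43 ± 0.28 (SE, adjusted p = 6.04e-08). Postn (periostin), abundant in bone membranes and scars, measured 12.13, 12.5 and 12.33 at P30 and 10.36, 11.14 and 10.48 at P100, a change of -1.66 ± 0.22 (SE, adjusted p = 2.43e-05). Ccn1, an integrin ligand that responds to serum, changed by -1.05 ± 0.37 (SE, adjusted p = 0.0372), a call lost whenever P30 replicate 1 or 2 or any P100 array was left out, with the change -1.15 to -0.94 and the adjusted p up to 0.114.

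Among 15 detected matrix-degrading enzymes and their inhibitors, 5 rose and 4 fell, or 5 and 1 without P30 replicates 1 and 2. Besides Serpine2, Adamts5, an aggrecan-cleaving protease, measured 5.81, 6.17 and 5.2 at P30 and 8.09, 8.61 and 7.83 at P100, a change of 2.45 ± 0.31 (SE, adjusted p = 1.38e-05). Ctsk, the collagen-degrading protease of osteoclasts and fibroblasts, measured 8.38, 8.22 and 8.68 at P30 and 5.52, 5.36 and 5.45 at P100, a change of -2.99 ± 0.18 (SE, adjusted p = 1.34e-09). Adamts7, a protease of cartilage and vessel wall, changed by -1.15 ± 0.30 (SE, adjusted p = 0.007) and by -1.19 (adjusted p = 0.0826) without P30 replicates 1 and 2. The groups of Adamts5 and Ctsk did not overlap.

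Several genes of contraction were lower at P100. Of 10 detected smooth muscle contractile genes, 5 fell and 1 rose, with a median of -1.08. Actg2, enteric smooth muscle actin, measured 11.9, 11.98 and 11.79 at P30 and 9.7, 8.9 and 9.48 at P100, a change of -2.53 ± 0.29 (SE, adjusted p = 5.22e-06). Cnn1 (calponin), which binds actin and myosin, measured 8.06, 8.00 and 7.96 at P30 and 5.93, 5.7 and 6.03 at P100, a change of -2.12 ± 0.23 (SE, adjusted p = 3e-06). The regulatory light chain Myl9, the tropomyosin Tpm1 and Myocd, a coactivator of serum response factor, had log2 changes of -1.73, -1.51 and -1.49, and in all 5 genes the P100 arrays lay below the P30 arrays. Des (desmin), an intermediate filament protein of muscle, rose instead, with 4.93, 4.8 and 4.92 at P30 and 6.91, 6.37 and 6.68 at P100, and was at least 2.35-fold higher (adjusted p = 4.61e-05) there. Kcnmb1, a potassium channel subunit of smooth muscle, measured 9.08, 9.18 and 9.09 at P30 and 5.56, 5.65 and 5.64 at P100, a change of -3.5 ± 0.35 (SE, adjusted p = 8.3e-07). In the wider list of actin cytoskeleton and focal adhesion genes, 1 of 31 rose and 4 fell, with a median of -0.16. The share that fell, 12.9%, was near the 13.4% of all genes, so this list showed no excess of falls.

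Integrins are the receptors that bind matrix to the cytoskeleton. Of 7 detected chains, none rose and 4 fell, with a median of -0.87, and 1 fell without P30 replicates 1 and 2. Itga4, which pairs with beta1 to bind Vcam1 and fibronectin, measured 6.79, 6.8 and 7.5 at P30 and 4.66, 4.59 and 4.97 at P100 and was at least 3.8-fold lower (adjusted p = 3.31e-07) there. Itga5, the fibronectin receptor chain, measured 11.16, 10.98 and 10.78 at P30 and 9.28, 10.27 and 8.93 at P100, a change of -1.48 ± 0.34 (SE, adjusted p = 0.00332), or -1.29 (adjusted p = 0.0995) without P30 replicates 1 and 2. Itga7, a laminin receptor chain, changed by -1.13 ± 0.24 (SE, adjusted p = 0.0017), or -0.82 (adjusted p = 0.114) without those arrays. Itga11, a collagen receptor chain, measured 12.51, 12.41 and 12.34 at P30 and 11.39, 12.16 and 11.09 at P100, and its call was lost without P30 replicate 1 or 2 or P100 replicate 1 or 3, with the change -1.18 to -0.65 and the adjusted p up to 0.109.

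**Figure D3:**
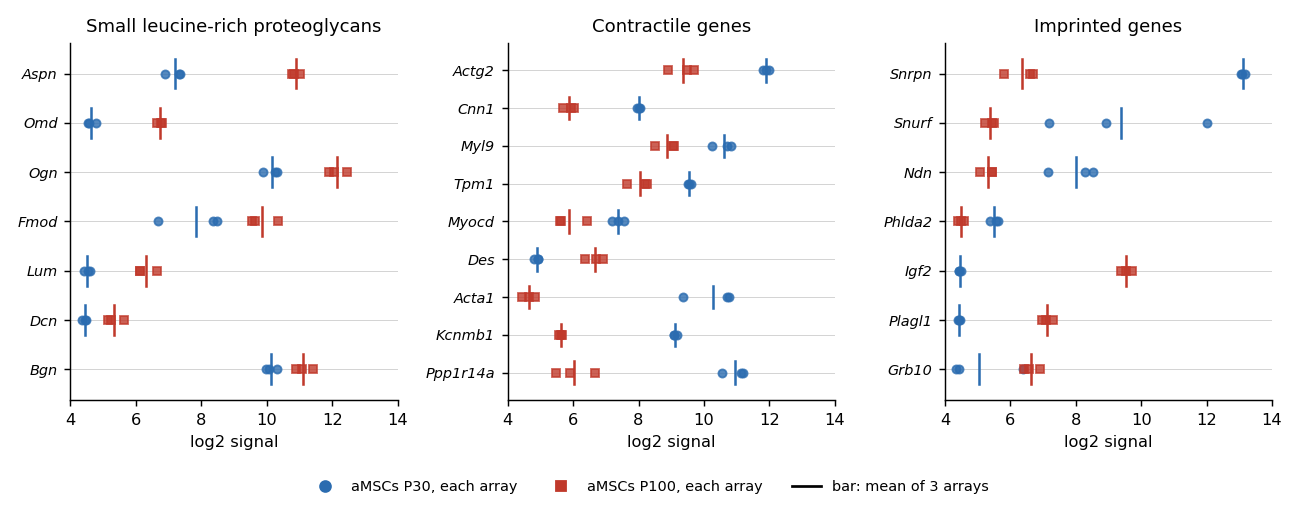
Log2 signal (horizontal axis) on each array of small leucine-rich proteoglycans, contractile genes and imprinted genes (blue circles aMSCs P30, red squares aMSCs P100, bars the mean of 3 arrays). Only called genes were drawn, and Acta1, Kcnmb1 and Ppp1r14a were added from outside the smooth muscle list, so the directions shown follow from that choice. All 7 proteoglycans shown are higher at P100, all contractile genes shown but Des are lower, and the imprinted genes shown divide into 4 that fell and 3 that rose. In the full lists, 7 of 8 proteoglycans rose, 5 of 10 smooth muscle genes fell and 1 rose, and 10 imprinted genes were detected.

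Genes of the lineages that MSCs can form showed no common direction. Of 14 osteoblast and mineralization genes, 3 rose and 4 fell, with a median of -0.08. Beside Dmp1 and Omd on the rising side, Mgp, an inhibitor of calcification, measured 7.06, 7.1 and 7.89 at P30 and 4.41, 4.89 and 4.77 at P100 and was at least 4.75-fold lower (adjusted p = 2.2e-06) there. Msx2, a homeobox factor of skull and limb, measured 7.16, 7.07 and 7.34 at P30 and 5.12, 5.08 and 5.28 at P100, a change of -2.03 ± 0.20 (SE, adjusted p = 6.54e-07). Alpl, the phosphatase of mineralizing cells, and Spp1 (osteopontin) had log2 changes of -1.14 and -0.72. Of 4 detected cartilage genes, Acan (aggrecan) changed by -1.92 ± 0.27 (SE, adjusted p = 3.8e-05) and Cilp, a cartilage intermediate layer protein, by 2.14 ± 0.44 (SE, adjusted p = 0.00142). Of 9 detected adipocyte genes only Lpl (lipoprotein lipase) was called, with 4.97, 4.7 and 5.58 at P30 and 5.8, 6.19 and 5.83 at P100, and its change of 0.86 ± 0.31 (SE, adjusted p = 0.0397) lost the call whenever P30 replicate 1 or 2 or any P100 array was left out, with the change 0.67 to 1.11 and the adjusted p up to 0.162.

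Genes of the TGF-beta family changed in both directions. In the TGF-beta list 2 of 12 rose and 5 fell, and in the BMP list 5 of 18 rose and 1 fell. By group, 14 of the 18 BMP genes were detected at P30 and all 18 at P100. The rises in the BMP list were 3 without P100 replicate 2, and the falls in the TGF-beta list 2 without P30 replicates 1 and 2. Tgfb2 measured 11.61, 11.56 and 11.4 at P30 and 9.38, 9.86 and 9.32 at P100, a change of -2.00 ± 0.21 (SE, adjusted p = 2.08e-06). Tgfbi, a matrix protein induced by TGF-beta, measured 4.49, 4.76 and 4.94 at P30 and 7.26, 7.62 and 6.9 at P100 and was at least 3.59-fold higher (adjusted p = 2.1e-08) there. Bmp4 measured 4.49, 4.77 and 4.7 at P30 and 7.58, 7.12 and 7.28 at P100 and was at least 3.75-fold higher (adjusted p = 1.15e-06) there. All 3 had separate groups. Bmp2 rose by 1.17, and the activin chain Inhba changed by -1.29 ± 0.31 (SE, adjusted p = 0.00426), or -0.28 (adjusted p = 0.522) without P30 replicates 1 and 2. Id3, a direct target of BMP signalling, changed by -1.06 ± 0.26 (SE, adjusted p = 0.00459), or -1.11 (adjusted p = 0.0639) without those arrays, and Ltbp1, which tethers latent TGF-beta, by 1.00 ± 0.22 (SE, adjusted p = 0.00222), or 0.79 (adjusted p = 0.102).

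In the Wnt list 5 of 14 rose and 2 fell. The co-receptors went opposite ways, with Lrp6 at 6.2, 6.23 and 6.44 at P30 and 8.12, 8.42 and 8.02 at P100, a change of 1.9 ± 0.21 (SE, adjusted p = 2.6e-06), and Lrp5 at 6.43, 6.27 and 6.2 at P30 and 5.29, 5.32 and 5.21 at P100, a change of -1.02 ± 0.20 (SE, adjusted p = 0.000755). The ligand Wnt4 was at least 2.34-fold lower (adjusted p = 0.000941) at P100 and the secreted antagonist Sfrp4 at least 1.17-fold higher (adjusted p = 0.000214). In the insulin-like growth factor system 2 of 7 rose and 2 fell. Igfbp6, a binding protein with preference for Igf2, measured 8.99, 9.02 and 7.92 at P30 and 10.8, 9.85 and 10.89 at P100, a change of 1.87 ± 0.35 (SE, adjusted p = 0.000575). The receptor Igf1r changed by -1.25 ± 0.32 (SE, adjusted p = 0.00596), or -0.89 (adjusted p = 0.208) without P30 replicates 1 and 2, and Igfbp7 by -0.77 ± 0.22 (SE, adjusted p = 0.0125). Igfbp7 lost the call without P30 replicate 1 or 2 or P100 replicate 2, with the change -0.97 to -0.51 and the adjusted p up to 0.0711.

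Among FGF, PDGF, VEGF, HGF and EGF family signals, 4 of 18 rose and 6 fell. Pdgfra, a receptor that marks mesenchymal progenitors, measured 7.43, 7.52 and 8.13 at P30 and 10.48, 10.93 and 10.09 at P100, a change of 2.81 ± 0.28 (SE, adjusted p = 8.44e-07). Fgf7, a stromal factor that acts on epithelia, measured 5.74, 5.63 and 6.45 at P30 and 8.54, 8.62 and 8.39 at P100, a change of 2.57 ± 0.21 (SE, adjusted p = 9.52e-08). Vegfc, a lymphatic growth factor, measured 8.71, 8.65 and 9.47 at P30 and 6.61, 6.53 and 6.8 at P100, a change of -2.3 ± 0.21 (SE, adjusted p = 3.49e-07). Hbegf, a ligand of the EGF receptor, changed by -2.04 ± 0.19 (SE, adjusted p = 3.91e-07). The groups of these genes did not overlap. Tgfa fell, with a log2 change of -1.7, and Pdgfc rose by 2.22. Fgf2 was at least 2.48-fold lower (adjusted p = 3.31e-06) at P100 and Fgf1 at least 1.77-fold higher (adjusted p = 4.96e-05).

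Of 11 detected chemokines, interleukins and their receptors, 5 rose and 3 fell, with a median of 0.82, or 0.33 with 3 members not detected at one passage at their bounds. By group, 8 of the 11 were detected at P30 and 10 at P100. Il33, a nuclear cytokine released from damaged cells, measured 5.46, 4.99 and 4.7 at P30 and 10.16, 10.56 and 10.15 at P100, a change of 5.24 ± 0.18 (SE, adjusted p = 1.25e-12). Il1rl1, its receptor chain, measured 11.2, 11.04 and 11.04 at P30 and 7.4, 7.74 and 6.86 at P100, a change of -3.76 ± 0.22 (SE, adjusted p = 1.01e-09). Ligand and receptor thus changed in opposite directions, each with separate groups. Cx3cl1 (fractalkine) measured 5.93, 5.31 and 5.55 at P30 and 8.54, 9.15 and 8.62 at P100, a change of 3.17 ± 0.45 (SE, adjusted p = 4.43e-05). Il15, a lymphocyte growth factor, changed by -1.51 ± 0.17 (SE, adjusted p = 4.43e-06), and Cxcl12, the stromal chemokine that holds blood stem cells in the marrow, by 1.64 ± 0.28 (SE, adjusted p = 0.000262). Of 8 detected complement genes, 4 rose and 0 fell (median 0.64), or a median of 0.52 with 3 members not detected at one passage at their bounds. By group, 4 of the 8 were detected at P30 and all 8 at P100, so those detected at P100 alone entered the list through the higher group. The rises included Clu (above) and Cd55, which protects cells from complement. Cd55 measured 4.76, 4.55 and 5.26 at P30 and 7.42, 7.79 and 7.28 at P100, at least 4.21-fold higher (adjusted p = 1.01e-06) there.

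Interferon-induced genes carry out antiviral defence. In this list 6 rose and 1 fell of 12 detected, with a median of 0.73, also with 2 members not detected at one passage at their bounds. By group, 9 of the 12 were detected at P30 and all 12 at P100. Gbp2, a guanylate-binding protein, measured 5.05, 4.58 and 4.51 at P30 and 6.7, 6.88 and 7.14 at P100 and was at least 2.8-fold higher (adjusted p = 2.02e-05) there. Ifi44, an interferon-induced cytoplasmic protein, measured 5.22, 4.87 and 5.53 at P30 and 7.23, 7.00 and 7.25 at P100, a change of 1.95 ± 0.19 (SE, adjusted p = 7.79e-07). Their P100 arrays were all above their P30 arrays. Irf7, a transcription factor of the pathway, rose by 0.94, and Ifitm3, which blocks virus entry, by 0.93 on the log2 scale. Psmb8, an immunoproteasome subunit, changed by -0.96 ± 0.35 (SE, adjusted p = 0.0452), which lost the call when any 1 of the 6 arrays was left out, with the change -1.08 to -0.77 and the adjusted p up to 0.159.

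Interferon acts through a repeated element in promoters, and the promoters of 4 of these genes are shown to let the letters be read beside the values. They are the 250 bases before and 50 after the RefSeq start on rat build GRCr8, at chr2:234005477-234005776, plus strand for Gbp2, chr2:243303791-243304090, minus strand for Ifi44, chr1:205541709-205542008, minus strand for Ifitm3 and chr1:205799974-205800273, minus strand for Irf7, with the letters TTTC, any 2 bases and TTTC again, searched on both strands, in capitals.
Gbp2: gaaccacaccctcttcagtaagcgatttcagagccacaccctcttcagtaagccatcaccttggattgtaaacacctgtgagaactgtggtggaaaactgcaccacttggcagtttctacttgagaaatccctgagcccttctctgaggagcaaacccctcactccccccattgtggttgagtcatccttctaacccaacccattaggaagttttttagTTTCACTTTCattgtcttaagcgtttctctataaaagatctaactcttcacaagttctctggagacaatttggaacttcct
Ifi44: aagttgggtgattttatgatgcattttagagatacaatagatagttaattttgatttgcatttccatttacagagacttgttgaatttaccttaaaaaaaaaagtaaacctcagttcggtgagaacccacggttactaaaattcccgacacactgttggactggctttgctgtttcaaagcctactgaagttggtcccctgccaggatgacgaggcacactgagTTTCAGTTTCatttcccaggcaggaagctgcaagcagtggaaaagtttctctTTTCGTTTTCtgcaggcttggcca
Ifitm3: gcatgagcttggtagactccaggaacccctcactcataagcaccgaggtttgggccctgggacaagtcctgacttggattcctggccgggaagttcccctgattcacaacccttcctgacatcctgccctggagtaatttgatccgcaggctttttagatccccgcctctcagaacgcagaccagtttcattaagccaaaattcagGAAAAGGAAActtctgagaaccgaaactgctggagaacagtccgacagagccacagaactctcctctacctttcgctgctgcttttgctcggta
Irf7: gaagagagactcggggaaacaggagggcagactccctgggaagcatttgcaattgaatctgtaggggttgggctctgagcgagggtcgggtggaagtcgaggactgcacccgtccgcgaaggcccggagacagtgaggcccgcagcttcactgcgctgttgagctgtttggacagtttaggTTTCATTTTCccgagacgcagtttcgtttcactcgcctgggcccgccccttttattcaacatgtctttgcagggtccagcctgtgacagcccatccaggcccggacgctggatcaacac
Of 11 members of the list with a promoter sequence, 8 held the motif. They were 5 of 6 that rose, all but Irf1, 1 of 1 that fell, Psmb8, and 2 of 4 that were not called. Over all 27457 RefSeq promoters of this length, 3.77% held it. The 4 promoters shown were taken from the rises that held it. The first match lay 31 bases before the start in Gbp2, 26 in Ifi44, 44 in Ifitm3 and 69 in Irf7. The motif was chosen with the values known, as 1 of 9 pairs of motif and list searched, and a match is a description of the letters, not of a factor bound there.

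Some genes of cell division were lower. Of 40 detected DNA replication genes, 1 rose and 9 fell, with a median of -0.33, and of 24 mitosis and spindle genes none rose and 5 fell, with a median of -0.32. Against the 13.4% of all genes that were called lower, the shares here were 22.5% and 20.8%. Without P30 replicate 3 the counts were 5 higher and 6 lower in the replication list and 2 and 5 in the mitosis list, and without normalization between arrays 2 and 4 and 1 and 5. Without P100 replicate 2, 8 mitosis genes fell. Orc1, a subunit of the origin recognition complex, measured 7.29, 7.39 and 7.42 at P30 and 6.25, 6.53 and 5.92 at P100, a change of -1.14 ± 0.21 (SE, adjusted p = 0.000642). Ube2c, a ubiquitin-conjugating enzyme of the anaphase-promoting complex, measured 9.19, 9.31 and 9.5 at P30 and 7.83, 7.52 and 8.24 at P100, a change of -1.47 ± 0.33 (SE, adjusted p = 0.00259). Cdc20, an activator of the same complex, measured 9.48, 9.51 and 9.7 at P30 and 8.32, 8.25 and 8.04 at P100, a change of -1.36 ± 0.25 (SE, adjusted p = 0.000589). The 3 genes had separate groups. Pold2, a subunit of DNA polymerase delta, changed by -0.86 ± 0.13 (SE, adjusted p = 0.000119). Pola1, the catalytic subunit of polymerase alpha, changed by 0.99 ± 0.34 (SE, adjusted p = 0.0343) and by -0.18 (adjusted p = 0.719) without P30 replicates 1 and 2, so that its sign turned. It also lost the call without P30 replicate 1 or 2 or P100 replicate 2 or 3, with the change 0.66 to 1.57 and the adjusted p up to 0.178.

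Of 14 regulators of G1, 2 rose and 3 fell. E2f1, a transcription factor of S-phase genes, measured 7.04, 7.11 and 7.03 at P30 and 5.87, 6.01 and 5.76 at P100, a change of -1.18 ± 0.13 (SE, adjusted p = 2.66e-06). Cdk6, a kinase partner of D-type cyclins, measured 6.5, 6.43 and 6.69 at P30 and 5.92, 5.35 and 5.29 at P100, a change of -1.02 ± 0.21 (SE, adjusted p = 0.00117). Mycn, a MYC family factor, measured 4.57, 4.5 and 4.49 at P30 and 5.82, 6.12 and 5.95 at P100 and was at least 1.46-fold higher (adjusted p = 0.000402) there. Cdkn1b, the inhibitor p27, changed by 0.74 ± 0.28 (SE, adjusted p = 0.0492) and lost the call without P30 replicate 2 or 3 or P100 replicate 1 or 3, with the change 0.44 to 1.05 and the adjusted p up to 0.222. Of 20 detected p53 targets and apoptosis genes, 1 rose and 5 fell. Gadd45g and Gadd45b, stress sensors, changed by -2.37 ± 0.27 (SE, adjusted p = 3.77e-06) and -1.73 ± 0.21 (SE, adjusted p = 1.09e-05). Sesn1, a p53 target that restrains growth signalling, changed by 1.28 ± 0.22 (SE, adjusted p = 0.000322). The death receptor Fas changed by -1.25 ± 0.14 (SE, adjusted p = 2.53e-06). Of 16 genes for DNA methylation, Polycomb and chromatin enzymes none was called, with a median of -0.10. The maintenance methyltransferase Dnmt1 changed by -0.18 ± 0.25 (SE, adjusted p = 0.605) and Eed, a Polycomb subunit, by -0.12 ± 0.11 (SE, adjusted p = 0.39).

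The mitochondrial lists shifted down by little, and 1 array moved with them. Of 56 respiratory chain and ATP synthase genes, 2 rose and 15 fell (26.8%), with a median of -0.44. Without P100 replicate 2 the counts were 2 and 5 and the median -0.19. The falls were 5 and 7 without P30 replicate 1 or 2, 10 without P100 replicate 1, 31 without P100 replicate 3 and 0 without P30 replicates 1 and 2 together. Of 54 mitochondrial ribosome genes, none rose and 12 fell (22.2%), with a median of -0.35, or 2, 5 and -0.11 without that array. Here the falls were 5 and 7 without P30 replicate 1 or 2, 21 without P100 replicate 3 and 1 without P30 replicates 1 and 2 together. Ndufb7, a subunit of complex I, measured 11.52, 11.63 and 11.01 at P30 and 10.15, 9.76 and 10.96 at P100, a change of -1.1 ± 0.27 (SE, adjusted p = 0.00479), or -0.83 (adjusted p = 0.0297) without P100 replicate 2. Cox6a2, the muscle form of a cytochrome oxidase subunit, changed by -1.3 ± 0.34 (SE, adjusted p = 0.00748), or -0.99 (adjusted p = 0.2) without P30 replicates 1 and 2. Cox7a2l, which joins respiratory complexes, measured 9.57, 10.14 and 10.29 at P30 and 11.62, 11.06 and 11.94 at P100, a change of 1.54 ± 0.20 (SE, adjusted p = 2.07e-05). Of the mitochondrial ribosomal proteins, Mrpl50 changed by -1.2 ± 0.15 (SE, adjusted p = 1.25e-05) and Mrps25 by -1.2 ± 0.27 (SE, adjusted p = 0.00269), or -1.1 (adjusted p = 0.0758) without P30 replicates 1 and 2. No fall of a respiratory chain gene kept its call under every array left out.

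Of 12 genes of the hypoxia response, 7 rose and 1 fell, with a median of 0.65. Without P100 replicate 2 the rises were 4 and the median 0.40, and without P30 replicates 1 and 2 the counts were 3 and 2. Car9, a membrane carbonic anhydrase that exports acid, measured 5.55, 6.28 and 6.09 at P30 and 10.2, 10.4 and 10.04 at P100, a change of 4.24 ± 0.45 (SE, adjusted p = 1.69e-06). Pdk1, the kinase that closes pyruvate dehydrogenase, measured 7.58, 7.38 and 7.64 at P30 and 8.87, 8.54 and 8.75 at P100, a change of 1.19 ± 0.16 (SE, adjusted p = 3.27e-05). Bnip3, a mitochondrial inducer of mitophagy, measured 9.91, 9.87 and 9.39 at P30 and 8.36, 8.31 and 8.37 at P100, a change of -1.38 ± 0.17 (SE, adjusted p = 1.1e-05). All 3 groups were separate, and Bnip3 went against the others. Of 14 glycolysis genes 3 rose and 2 fell, or 1 and 3 without P100 replicate 2 and 2 and 5 without P30 replicate 3. Aldoc, the aldolase of brain, measured 5.47, 5.64 and 4.77 at P30 and 7.89, 7.64 and 7.79 at P100, a change of 2.48 ± 0.24 (SE, adjusted p = 6.87e-07), and Slc16a3, the lactate exporter MCT4, measured 11.51, 11.48 and 11.87 at P30 and 8.95, 9.12 and 8.8 at P100, a change of -2.66 ± 0.19 (SE, adjusted p = 1.44e-08). Pfkp, a phosphofructokinase, changed by -1.15 ± 0.22 (SE, adjusted p = 0.000826), or -0.91 (adjusted p = 0.0673) without P30 replicates 1 and 2, and Gpi, the second enzyme of the path, by 0.72 ± 0.14 (SE, adjusted p = 0.000628), or 0.58 (adjusted p = 0.00303) without P100 replicate 2.

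In cholesterol synthesis 6 of 18 rose and 0 fell, for a median of 0.60. The rises were 3 without P30 replicate 3, P100 replicate 1 or P100 replicate 2, and 10 with the 12 arrays of P30 and P100. Of the 6, 1 kept its call under every leave-out of aMSCs arrays. Tm7sf2, a sterol reductase, changed by 1.5 ± 0.47 (SE, adjusted p = 0.0212) and lost the call without P30 replicate 3 or P100 replicate 1, with the change 1.08 to 1.73 and the adjusted p up to 0.0881. Insig1, the sterol sensor that retains SREBP, changed by 1.3 ± 0.42 (SE, adjusted p = 0.025) and lost the call without P30 replicate 1 or 3 or P100 replicate 1 or 2, with the change 1.16 to 1.42 and the adjusted p up to 0.0847. Nsdhl, a sterol dehydrogenase, changed by 1.02 ± 0.21 (SE, adjusted p = 0.00138). In amino acid synthesis and its stress response 1 of 19 rose and 7 fell, with a median of -0.50, or 1 and 3 and a median of -0.18 without P30 replicates 1 and 2. Psph, the last enzyme of serine synthesis, measured 11.58, 11.58 and 11.00 at P30 and 10.04, 9.56 and 10.00 at P100, a change of -1.52 ± 0.18 (SE, adjusted p = 8.75e-06). Cth, which makes cysteine, measured 7.77, 7.47 and 7.35 at P30 and 9.07, 8.77 and 8.74 at P100, a change of 1.33 ± 0.15 (SE, adjusted p = 3.01e-06). Vldlr, a lipoprotein receptor, changed by -1.36 ± 0.24 (SE, adjusted p = 0.000336), and the stress-induced factor Atf3 was at least 2.13-fold lower (adjusted p = 2e-05) at P100.

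Of 37 detected genes of glutathione and antioxidant defence, 5 rose (13.5%) and 11 fell (29.7%), with a median of -0.21 that was -0.01 without P100 replicate 2. The falls were 7 without that array and 6 without P30 replicates 1 and 2. Cyba, Gpx3 and Mgst1 (above) were the extremes, and p22phox makes rather than removes reactive oxygen. Sod3, the extracellular superoxide dismutase, changed by -2.15 ± 0.25 (SE, adjusted p = 5.32e-06) and Cat (catalase) by 1.14 ± 0.19 (SE, adjusted p = 0.000247). Gclc, the catalytic subunit of the first enzyme of glutathione synthesis, changed by -0.81 ± 0.19 (SE, adjusted p = 0.00323). Gstm2, a cytosolic glutathione transferase, measured 7.16, 7.27 and 7.29 at P30 and 8.86, 7.94 and 8.94 at P100, a change of 1.34 ± 0.25 (SE, adjusted p = 0.000584).

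Imprinted genes are expressed from 1 parental copy. Of 10 detected, 3 rose and 4 fell, with a median of -0.20, and these included some of the largest changes in either direction. Snurf, transcribed together with Snrpn on chromosome 1, measured 7.2, 8.92 and 12.02 at P30 and 5.43, 5.23 and 5.5 at P100, a change of -3.99 ± 0.71 (SE, adjusted p = 0.000417). Its P30 arrays were spread widely, those of Snrpn narrowly. Ndn (necdin), in the same region with 3 protein-coding genes between, changed by -2.68 ± 0.29 (SE, adjusted p = 2.43e-06). Plagl1, a zinc-finger growth suppressor, measured 4.42, 4.41 and 4.45 at P30 and 6.97, 7.09 and 7.29 at P100 and was at least 3.24-fold higher (adjusted p = 5.32e-10) there. At passage 2 the Igf2 signal averaged 7.3 ± 0.38 (SD, n = 3), between the undetected level at P30 and the level at P100. Grb10, an adaptor of insulin receptors, measured 4.33, 4.42 and 6.4 at P30 and 6.42, 6.92 and 6.57 at P100, with P30 replicate 3 next to the P100 arrays, and its call was lost without P30 replicate 1 or 2, with the change 1.23 to 2.26 and the adjusted p up to 0.0566.

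Homeobox and other positional transcription factors record where in the body a fibroblast came from. Of 26 detected, 7 rose and 4 fell, with a median of 0.27, or 4 and 3 without P30 replicates 1 and 2. Meis2 measured 7.00, 7.05 and 7.36 at P30 and 8.62, 8.81 and 8.66 at P100, a change of 1.56 ± 0.14 (SE, adjusted p = 3.68e-07). Tbx3, of limb and breast, measured 6.09, 6.1 and 5.56 at P30 and 4.44, 4.52 and 4.49 at P100 and was at least 1.76-fold lower (adjusted p = 1.6e-06) there. Tbx18, of mural and heart progenitor cells, measured 4.87, 4.37 and 6.19 at P30 and 6.53, 6.79 and 6.35 at P100, a change of 1.42 ± 0.34 (SE, adjusted p = 0.00463), or 0.37 (adjusted p = 0.49) without P30 replicates 1 and 2. Msx1 and Msx2 (above) both fell, Msx1 being at least 1.96-fold lower (adjusted p = 3.75e-06) at P100, and Dlx2 rose by 1.18.

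**Figure D4:**
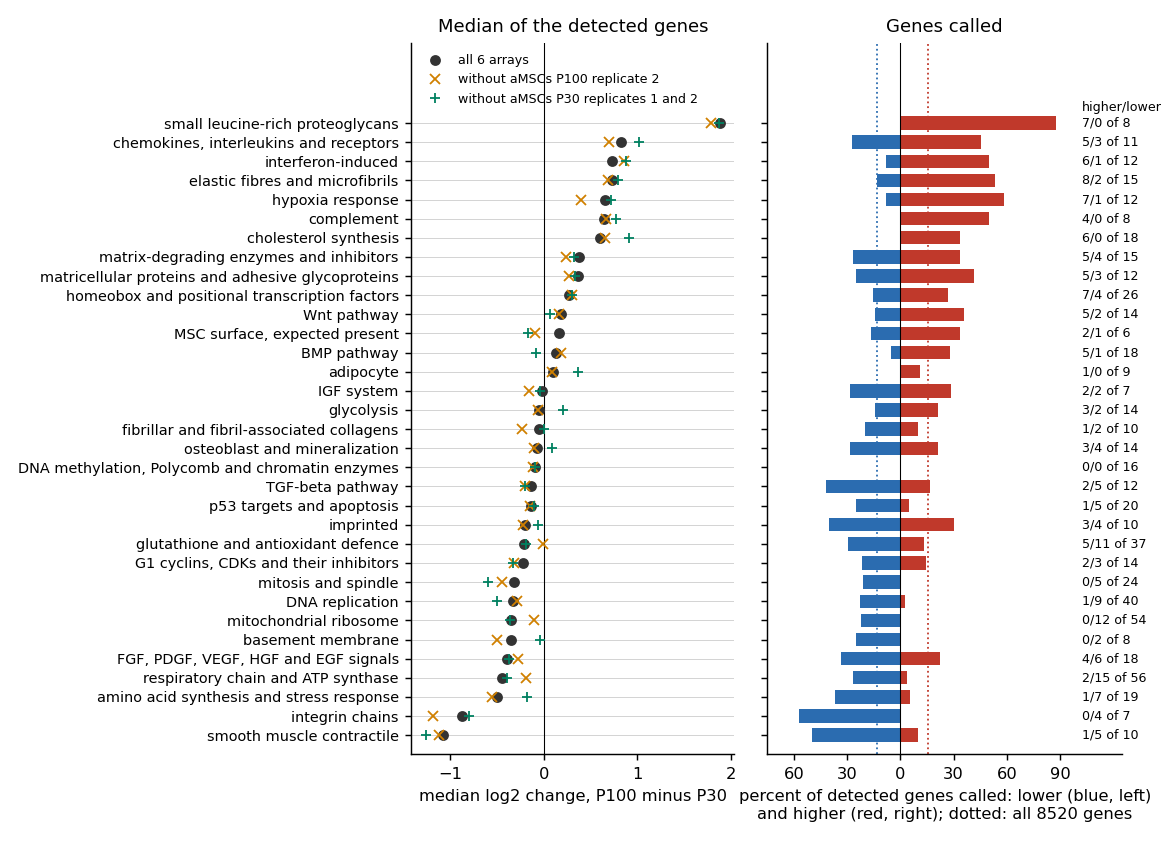
Gene lists with at least 5 detected genes, ordered by the median log2 change from aMSCs P30 to P100 (left, with the same median without aMSCs P100 replicate 2 and without P30 replicates 1 and 2), and the percent of their detected genes called lower or higher (right, dotted lines at 13.4% and 15.7% for all 8520 genes). Small leucine-rich proteoglycans lie highest at 1.88 and smooth muscle contractile genes lowest at -1.08. Of the 8 proteoglycans, 4 were detected at P30 and all 8 at P100.

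The same step in the cells of young rats was smaller. In yMSCs 279 of the 8520 genes (3.27%) were higher at P100 than at P30 and 369 (4.33%) were lower, 7.61% together. Their P30 and P100 arrays correlated at 0.950 to 0.971, against 0.898 to 0.941 in aMSCs. Of the 1340 genes that rose in aMSCs, 101 also rose in yMSCs, 64 fell and 1175 were not called. Of the 1138 that fell, 153 also fell in yMSCs, 40 rose and 945 were not called. The interaction tests whether the step differed between aMSCs and yMSCs. In it, donor age cannot be told apart from the history of the particular cultures. The interaction was called for 1976 genes, 23.2%, of which 1031 (12.1%) were more positive in aMSCs and 945 (11.1%) more negative. Genes called in aMSCs were chosen by a change that is part of the interaction, so a share above 23.2% was built in. The interaction was called for 797 of the genes that rose and 653 of those that fell in aMSCs. Without P30 replicates 1 and 2 it was called for 1150 genes.

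The largest interaction was that of the matrix gene Eln. Where no array of a group detected a gene, the interaction is a difference of measured signals and no bound, which holds for Eln, Thbs2, Gas2 and Slit3 in yMSCs P100 and for Slit3 also in aMSCs P30. The log2 signal of Eln in yMSCs was 8.1 ± 0.67 at P30 and 4.36 ± 0.02 at P100, as mean and SD of 3 arrays, so it fell there and rose in aMSCs, with an interaction of 8.55 ± 1.04 (SE, adjusted p = 1.93e-05). Thbs2 was 7.99 ± 0.56 at P30 and 4.64 ± 0.18 at P100 in yMSCs, with an interaction of 6.79 ± 0.39 (SE, adjusted p = 2.45e-09). Other genes did not follow aMSCs in direction, Gas2, an actin-associated growth arrest protein, with an interaction of 7.00 ± 0.42 (SE, adjusted p = 3.13e-09), and Slit3, a guidance ligand, with 7.00 ± 0.36 (SE, adjusted p = 6.35e-10). Gas2 measured 7.35, 7.35 and 7.2 at P30 and 10.64, 10.78 and 10.54 at P100 in aMSCs and Slit3 4.7, 5.28 and 4.48 at P30 and 7.47, 7.54 and 7.39 at P100. In yMSCs Gas2 was 8.5 ± 0.16 at P30 and 4.84 ± 0.19 at P100, and Slit3 8.77 ± 0.69 at P30 and 4.42 ± 0.04 at P100.

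On the negative side, Cyba in aMSCs at passage 2 was 12.48 ± 0.08, and in yMSCs 11.76 ± 0.41 at P30 and 11.7 ± 0.02 at P100, so that of these groups only aMSCs at P100 read low, and its interaction was -6.84 ± 0.31 (SE, adjusted p = 1.53e-10). Mt1, a metallothionein that binds zinc and copper, measured 9.97, 9.98 and 9.73 at P30 and 7.86, 7.89 and 9.5 at P100 in aMSCs, with a change of -1.48 that was -1.31 (adjusted p = 0.139) without P30 replicates 1 and 2. Its level in yMSCs was 8.67 ± 0.77 at P30 and 11.05 ± 0.07 at P100, an interaction of -3.85 ± 0.55 (SE, adjusted p = 8.72e-05). Ptprn, a protein of secretory granules, measured 8.93, 9.14 and 8.4 at P30 and 6.13, 6.6 and 5.75 at P100 in aMSCs. Its level in yMSCs was 6.79 ± 0.41 at P30 and 7.97 ± 0.09 at P100, an interaction of -3.84 ± 0.47 (SE, adjusted p = 1.83e-05). In contrast, for yMSCs Snrpn was 10.37 ± 0.30 at P30 and 4.33 ± 0.03 at P100 and Snurf 8.92 ± 0.28 at P30 and 4.57 ± 0.15 at P100, where no yMSCs P100 array detected either gene. Il1rl1, Actg2 and Acan changed by -3.35, -2.72 and -2.34 in yMSCs, and the interaction was called for none of these 3.

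By chromosome, the genes of chromosome 6 stood higher as a group. This was noticed after the values were seen and is a description with no test. Of the 6156 named genes, 6151 had a chromosome in the RefSeq annotation, 277 of them on chromosome 6. Their median log2 change was 0.38, 86 (31.0%) were called higher and 12 (4.33%) lower, and 73.3% lay above 0. On the other 20 chromosomes the medians ran from -0.16 to 0.02, with 9.14% to 21.1% of genes called higher and 9.73% to 19.3% lower. When the 277 genes were taken in their order along the chromosome in 5 blocks of 55 or 56, the medians were 0.41, 0.35, 0.51, 0.35 and 0.35, so that no single stretch carried the shift. Measured on each array against the mean of aMSCs P30 and relative to all placed genes, the median of chromosome 6 was 0.38, 0.48 and 0.44 on the aMSCs P100 arrays. It was 0.40, 0.30 and 0.32 on the yMSCs P30 arrays and 0.36, 0.34 and 0.35 on the yMSCs P100 arrays. The aMSCs P30 arrays, whose mean was the reference, lay between -0.03 and 0.03, replicate 3 included. These 3 arrays thus read lower than the 9 other arrays of P30 and P100. The P2 arrays lay between 0.09 and 0.17, on a lower background. Chromosome 13 also stood apart, but in yMSCs. Its median was -0.158, -0.157 and -0.125 on the yMSCs P30 arrays and -0.275, -0.197 and -0.238 on the yMSCs P100 arrays. On the aMSCs P100 arrays it was -0.01, 0.08 and -0.05. A change in copy number was not tested, and expression alone does not measure it.

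**Figure D5:**
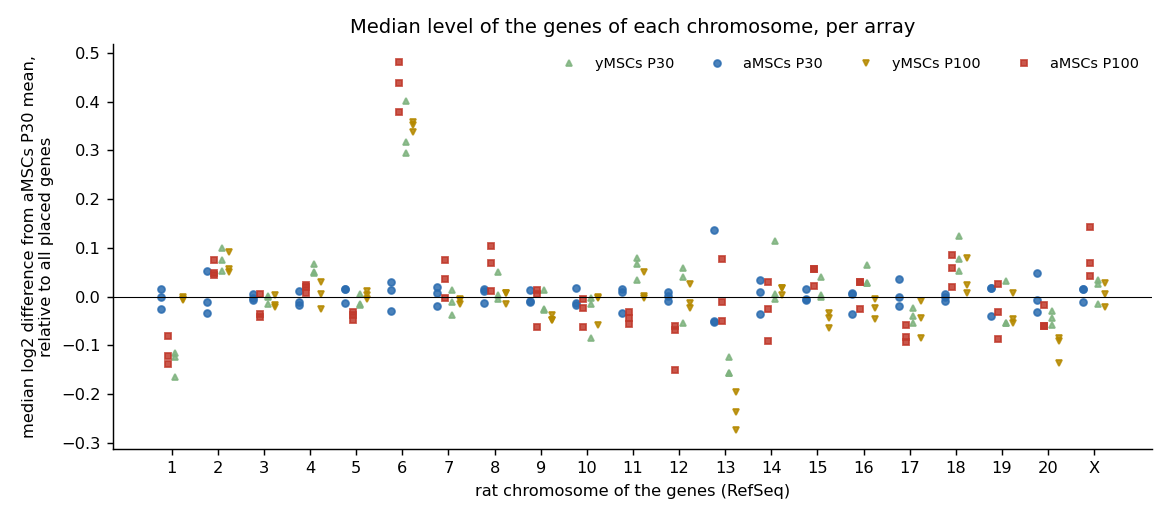
Median log2 difference from the aMSCs P30 mean (vertical axis, relative to all placed genes) of the named genes of each rat chromosome (horizontal axis), with 1 point per array and 3 arrays for each of aMSCs P30, aMSCs P100, yMSCs P30 and yMSCs P100. On chromosome 6 the aMSCs P30 points lie near 0 and the other 9 arrays between 0.30 and 0.48.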

How the data were processed

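Total RNA of 18 samples was hybridized by the authors to Illumina RatRef-12 bead chips and scanned, with BeadStudio version 3 named in the submitters' processing notes. The deposited values used here are bead intensities before normalization, with a detection p-value per probe and array, both made by the authors. The authors' background-subtracted, normalized intensities were used only as an alternative. Of 22226 probes, 13172 were named, 13131 through a RefSeq identifier and 41 from the platform annotation alone.

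Intensities were corrected by normexp with an offset of 16 and quantile-normalized over all 18 arrays (neqc, limma 3.58.1, R 4.3.3), and the brightest probe stood for a gene. All 6 groups were fitted together (lmFit and eBayes, 12 residual and 4.5 prior degrees of freedom), with Benjamini-Hochberg adjustment over 9531 genes detected in any group. Calls needed an adjusted p under 0.05 and a fold of 1.5 or more. A bound on a fold is the mean of the bright group against the higher of the dim probe's own value and the lowest detected signal of each dim array. Python 3.11.15, pandas 2.3.3, SciPy 1.17.1 and matplotlib 3.10.9 did the rest. On simulated data with 200 of 9531 genes changed, 16 of 50 were recovered at 1.5-fold, 34 of 50 at 2-fold and 49 of 50 at 3-fold and at 4-fold. The simulated noise was independent between genes, and far fewer genes were changed than the 2478 called in the real comparison. On the real arrays, many genes deviated together. The recovery on the real arrays may therefore differ from these counts.

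The groups came from the labels. The members, the gene lists and the tests were chosen with earlier results of these data known, so the 54 lists carry counts and medians and no test, and 40 of them were picked for description. The genes named were the 20 largest rises and falls with separate groups, up to 4 called genes of each described list, the 6 largest interactions each way, the surface markers and the 4 called genes of highest signal in each direction. Further list members were named after their values were seen. Replicate numbers only name the arrays. Alternatives covered background, offset, normalization, the arrays fitted, weights, filters, thresholds, probes and arrays left out. Counting error cannot be given for bead intensities, and the number of arrays limited the precision. Promoter sequences and chromosomes are those of RefSeq, build GRCr8.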

Additional observations from a re-analysis of the deposited data

Results flagged for a closer look

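The step from P30 to P100 differed between aMSCs and yMSCs in 1976 genes, 23.2% of the 8520, by the interaction in the limma fit (adjusted p under 0.05 and a difference of at least 1.5-fold). Among them were 128 of the genes named here. Named genes were chosen in large part for their change in aMSCs or for the interaction itself. The 128 follows in part from that choice and is no result about these genes. Donor age cannot be told apart here from the history of the particular cultures. For 52 of the 128 no array of at least 1 of the 4 groups detected the gene, so that the value is a difference of measured signals and no bound. Each value below is the log2 change in aMSCs minus that in yMSCs, so a positive value means a more positive change in the cells of the old rats. Extracellular matrix and its enzymes gave positive differences for Eln (8.55), Dmp1 (6.96), Thbs2 (6.79), Serpine2 (6.69), Fbn2 (6.04), Postn (4.31), Tnn (3.91), Aspn (3.89), Col3a1 (3.86), Cilp (2.84), Omd (2.21), Adamts5 (2.19), Mgp (1.47), Lum (1.73), Emilin1 (2.63), Fbln5 (2.27), Ogn (2.73), Bgn (1.16), Spp1 (0.94), Ltbp1 (1.46) and Tgfbi (0.90). For extracellular matrix and its enzymes it was negative in Aebp1 (-2.90), Col15a1 (-2.89) and Adamts7 (-1.24). Secreted signals and their receptors gave positive differences for Slit3 (6.99), Il33 (5.45), Igf2 (5.25), Cx3cl1 (5.09), Pdgfra (2.94), Lrp6 (1.93), Fgf7 (1.76), Gpr15lg (1.76), Igfbp6 (1.59), Bmp2 (1.36), Bmp4 (1.34), Cxcl12 (2.54), Pdgfc (1.76), Fgf1 (1.08), Grb10 (2.07) and Sfrp4 (1.08). For secreted signals and their receptors it was negative in Adgrg1 (-4.02), Vldlr (-1.62), Wnt4 (-1.54), Lrp5 (-1.51), Hbegf (-1.23), Fgf2 (-2.05), Tgfa (-1.21) and Vegfc (-1.06). Cell surface, immune defence and complement gave positive differences for Clu (4.57), Tm4sf1 (3.85), Tmem158 (3.78), Vcam1 (3.00), Cd83 (2.28), Cd55 (2.14), Thy1 (2.09), Gbp2 (1.39), Gldn (1.37), Ifi44 (1.06), Ifitm3 (0.96) and Gja1 (0.93). For cell surface, immune defence and complement it was negative in Ly6e (-0.96), Itga7 (-2.47), Fas (-2.57) and Alcam (-0.81). Cytoskeleton and contraction gave positive differences for Gas2 (7.01), Epb41l3 (6.07), Dync1i1 (4.86), Krt8 (3.02) and Vim (0.80). For cytoskeleton and contraction it was negative in Acta1 (-4.15), Kcnmb1 (-2.65), Ppp1r14a (-2.21), Tpm1 (-1.17) and Cnn1 (-1.38). Transcription factors and cell growth gave positive differences for Plagl1 (3.35), Tbx18 (3.21), Nfib (2.63), Meis2 (2.06), Mycn (1.5), Dlx2 (1.68) and Sesn1 (1.44). For transcription factors and cell growth it was negative in Gadd45g (-2.32), Orc1 (-1.74), Ube2c (-1.66), Cdc20 (-1.57), Cdk6 (-1.54), Msx2 (-1.31), Tbx3 (-1.25), Pold2 (-1.24), E2f1 (-1.13), Msx1 (-1.37), Atf3 (-1.32), Ndn (-1.63) and Gadd45b (-1.13). Metabolism, redox and mitochondria gave positive differences for Mgst1 (7.16), Lpl (4.72), Car9 (4.35), Aldoc (2.70), Cox7a2l (1.19), Cth (0.92), Cat (0.92), Nsdhl (1.28) and Pdk1 (0.89). For metabolism, redox and mitochondria it was negative in Cyba (-6.84), Gpx3 (-4.28), Mt1 (-3.85), Qsox1 (-2.30), Ckb (-2.21), Bnip3 (-2.03), Psph (-1.79), Mrpl50 (-1.56), Mrps25 (-1.35), Pfkp (-1.19), Ftl1 (-0.89), Gclc (-0.78) and Fuca2 (-0.60). Other functions gave positive differences for Rgs2 (5.30), Crabp1 (4.66), Ocm (2.95), Npm1 (2.83) and Psmc1 (0.73). For other functions it was negative in Ptprn (-3.84), Aplp1 (-3.69), Gng11 (-3.10), Zdhhc2 (-3.05), Spink8 (-1.97), Pmepa1 (-1.12) and Ahsp (-0.90). Eln, Thbs2, Fbn2, Lpl and Col3a1 were among the genes that rose in aMSCs and fell in yMSCs, the call of Lpl in aMSCs being lost with single arrays left out. In contrast, Postn, Mgp, Spp1 and Gldn changed downwards in both and less in aMSCs. The aMSCs changes of Npm1, Thy1 and Tbx18 were far smaller without P30 replicates 1 and 2, as given above. Grb10 lost its call in aMSCs without P30 replicate 1 or 2. Further genes listed here also lost their aMSCs call with arrays left out, as given with them above. The interactions listed were fitted with all arrays. No explanation of these differences was tested.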

How the results depend on the processing

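The counts of genes called in aMSCs were 1836 with an offset of 50, 2661 with a floor of 16 in place of the normexp background correction, 2339 on the authors' normalized values, 1652 with the 6 arrays fitted alone, 2154 with the 12 arrays of P30 and P100, 2553 with array weights, 2186 without a detection filter and 3195 without a fold threshold, beside 2478. With a fold threshold of 2, 1161 genes were called in aMSCs, 344 in yMSCs and 1226 in the interaction. Without aMSCs P30 replicates 1 and 2 together, 1463 were called in aMSCs and 1150 in the interaction. Leaving out 1 array gave 2014 to 2800 in aMSCs, 487 to 731 in yMSCs and 1549 to 2553 in the interaction. Without normalization between arrays the interaction divided into 1410 and 531 genes, beside 1031 and 945. The difference in detected genes was 867 at a detection limit of 0.05, 880 counted in probes and 618 to 1080 with 1 array left out.

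Same-numbered arrays did not deviate together, with correlations of -0.12 to 0.01 in aMSCs, so the numbers were not used to pair arrays. With the replicate number as a block, 2458 genes were called in aMSCs (1329 higher and 1129 lower), 622 in yMSCs and 1837 in the interaction.

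Of 140 called genes named by rule, 103 kept their direction and call under each of 27 alternatives, and 29 lost the call without P30 replicates 1 and 2. The sign turned for Pola1 without P30 replicates 1 and 2 (-0.18), and for genes that were not called. These were Itgb1 without normalization (-0.0159), on the authors' values (-0.0850), without P30 replicate 1, without P100 replicate 2 and without P30 replicates 1 and 2 (-0.62), with -0.19 to 0.50 over the arrays left out, Cd44 without P30 replicates 1 and 2 (-0.12), Slc4a1 without normalization (0.0616) and without P30 replicates 1 and 2 (0.00361), and Cd3e with array weights (0.0164). The causes were not tested. The list counts and medians without single arrays, the medians at bounds, and those by chromosome, were chosen after seeing the data. For chromosome 6 the median was 0.36 to 0.48 over these alternatives. Where no array of a group detected a named gene, its fold is given as a bound.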
